A study of Bos taurus with 10 samples.

Results

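Genes of the lysosome and of its proton pump were followed in epithelial cells from the isthmus of the bovine oviduct (Bos taurus heifers), the segment nearest the uterus. Members were 38 named lysosomal genes (hydrolases, their helper proteins, membrane proteins and the regulator TFEB) and every feature whose name began with ATP6V0 or ATP6V1, the vacuolar proton pump (V-ATPase). Of the 38 named genes 37 had a row, and 22 pump rows were found, giving 59 members of the 24596 features in the table. The list was selected on RPKM values of these libraries, with the comparison of pregnant and cyclic heifers already known, so its values for pregnant against cyclic heifers describe the data and are no independent test of it. Cyclic heifers (5 libraries) had received a sham transfer. Pregnant heifers (5 libraries) had received 50 presumptive zygotes produced in vitro. The labels used here give no age or breed of the heifers, no day of sampling and no number of embryos found. Both groups were profiled as bulk mRNA, to ask whether embryos in the oviduct alter the transcriptome of the cells that line it.

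Lysosomes are acidic organelles in which proteases, glycosidases, sulfatases and lipid hydrolases break down material delivered by endocytosis and autophagy. Newly made hydrolases carry a mannose-6-phosphate tag and are sorted to the organelle, although secretory epithelia also release some of them. The acidic pH is set by the V-ATPase, in which a cytosolic V1 sector hydrolyses ATP and a membrane V0 sector moves protons. TFEB is a transcription factor that binds promoters of many lysosomal genes in human cells.

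Values are RPKM, reads scaled by feature length and library total, which allow levels of different genes to be compared per length. Library totals recovered from the table were lowest for cyclic library 4, at 9.71 M reads, and highest for pregnant library 5, at 26.1 M reads. Means are given ± SD over 5 libraries per group. A log2 difference is pregnant minus cyclic on log2(RPKM + 1), which understates the change of low genes. Features with a mean of at least 1 RPKM were tested, 12834 in all and 56 of the 59 members. The lowest number of reads behind any value of a tested member was 16, and the median over members of the lowest library was 443.5 reads. The libraries did not separate cleanly by group. On the first principal component of all tested features (38.1% of the variance) cyclic library 3 lay at 10.5 and pregnant library 4 at -6.5, while the other cyclic libraries lay between -55.7 and -10.6 and the other pregnant libraries between 21.6 and 29.3.

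The epithelial markers OVGP1, PAX8, EPCAM, KRT8, KRT18, KRT19 and CDH1, all 7 of them detected, summed to between 3760 and 9890 RPKM in cyclic and between 1500 and 4160 RPKM in pregnant libraries. EPCAM, the keratins and CDH1 are general epithelial genes, so this sum is no measure of secretory cells alone. The 7 ciliated cell markers summed to 565 to 856 RPKM in cyclic and 476 to 539 RPKM in pregnant libraries. Macrophage and myeloid markers, 15 of 16 with a row, summed to 48.7 to 85.1 RPKM and 49.4 to 77.2 RPKM, the 5 general and T leukocyte markers to 9.41 to 11.7 RPKM and 8.19 to 13.6 RPKM, and the 8 fibroblast markers to 60.9 to 131 RPKM and 31.2 to 52.2 RPKM. No marker of these lists was at 0 in all libraries. The summed levels of the 7 epithelial markers overlapped between groups, and the summed ciliated and fibroblast levels did not. Gene by gene, 6 of 7 epithelial and 6 of 7 ciliated markers were lower in pregnant heifers (median log2 differences -0.57 and -0.53). For fibroblast markers 5 of 6 tested were lower (-0.57), for myeloid markers 9 of 12 (-0.29) and for leukocyte markers 1 of 4 (0.23). Over all tested features 49.1% were lower, with a median of 0.01. The part of any of these cell types in the lysosomal differences was not tested. In bulk RNA, fewer cells of a type and less RNA per cell cannot be told apart.

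Hydrolases were mostly lower in pregnant heifers, while V-ATPase subunits lay on both sides of 0. Of the 27 hydrolases, 23 had a negative log2 difference, with a median of -0.40 and a middle range (lower to upper quartile) from -0.74 to -0.15. All 5 membrane proteins were negative, but with a median of only -0.13. Of the 19 tested pump subunits, 12 were negative and 7 positive, with a median of -0.03. Over all tested features the median was 0.01, the middle range ran from -0.23 to 0.26, and 49.1% were below 0. A log2 difference under -0.5 was found for 12 of 27 hydrolases and 1 of 19 pump subunits, where 7.44% of all tested features lay that low. No member lay above 0.5, as 9.58% of all features did.

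None of these differences passed the adjusted p of 0.05 (limma-trend), which 0 of the 12834 tested features (0.0%) reached. The smallest adjusted p of any feature, 0.0934, was shared by CTSF, CATD, CTSA, MANB, CATB, ARSB, PSAP, LAMP1 and TFEB among the members. At an unadjusted p under 0.05, 22 members were lower and 2 higher, beside 11.9% and 15.7% of all tested features. Below an adjusted p of 0.1 lay 12 members, all of them lower, where 3.46% of all tested features were lower and 4.47% higher at that level. Groups that did not overlap at all were seen for 5 members that were lower (CTSF, CATD, CTSA, ARSB and LAMP1) and 1 that was higher (ATP6V0A2), beside 2.05% and 4.91% of all tested features. The count of members that passed rested on single libraries: it was 19 without cyclic library 3, where 17.2% of all features passed, and 1 (CTSF) without pregnant library 4. Non-overlapping members numbered 15 (26.8%) without cyclic library 3, 12 (21.4%) without pregnant library 4 and 10 (17.9%) without cyclic library 1, where the shares of all tested features also went up, to 17.8%, 16.1% and 9.58%.

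**Figure D1:**
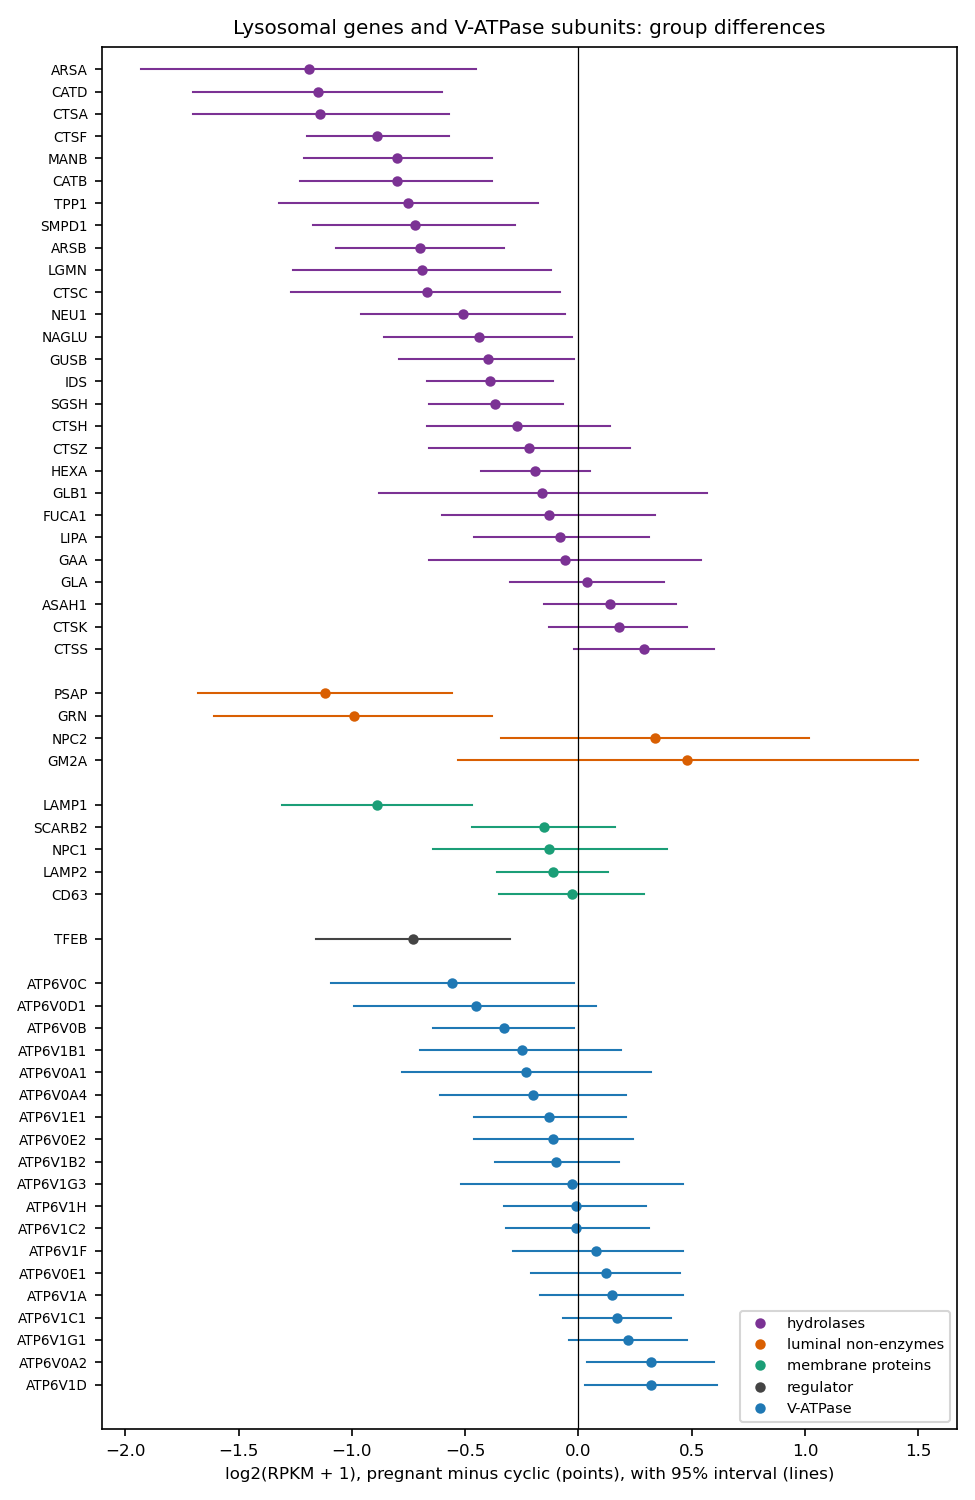
Log2 differences, pregnant minus cyclic on log2(RPKM + 1), of the 56 tested members by class; points are limma estimates from 5 libraries per group and lines their 95% intervals. Most hydrolases lie left of 0, from ARSA at -1.19 to CTSS at 0.29, while V-ATPase subunits lie between -0.56 and 0.32.

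Proteases showed the widest spread among the hydrolases. Of the 11, 9 were negative and 7 lay below -0.5. CTSF, the cysteine protease cathepsin F, stood at 20.6, 25.5, 19.5, 31.5 and 23.2 RPKM in cyclic libraries 1 to 5 and 14, 12.9, 10.8, 13.9 and 10.6 RPKM in pregnant libraries 1 to 5. Every pregnant library was below every cyclic library, and the log2 difference was -0.89 (SE 0.15, 95% interval -1.20 to -0.57), with a pregnant mean 0.517 times the cyclic mean. CATD, described in the table as cathepsin D (CTSD), the main aspartic protease of lysosomes, stood at 32.6, 59.8, 25.9, 67.5 and 51.6 RPKM in cyclic libraries 1 to 5 and 15, 21.1, 19.5, 25.8 and 17.9 RPKM in pregnant libraries 1 to 5. The groups were separated only by the distance between 25.9 RPKM in cyclic library 3 and 25.8 RPKM in pregnant library 4, and the log2 difference was -1.15 (SE 0.25, 95% interval -1.70 to -0.60). CTSA, cathepsin A, is a carboxypeptidase that also holds the sialidase NEU1 and the galactosidase GLB1 in a stable complex. It stood at 18.6, 32.1, 18.1, 42.7 and 34.8 RPKM in cyclic libraries 1 to 5 and 11.6, 8.31, 14, 17.5 and 10.6 RPKM in pregnant libraries 1 to 5. Cyclic libraries 1 and 3 were close to pregnant library 4 and the other cyclic libraries well above it; the log2 difference was -1.14 (SE 0.26, 95% interval -1.70 to -0.57). CATB, described as the cysteine protease cathepsin B (CTSB), had the highest mean of the hydrolases in cyclic libraries but lay below CTSS, FUCA1 and GLB1 in pregnant ones. It stood at 58.1, 74.9, 69.5, 121 and 88.8 RPKM in cyclic libraries 1 to 5 and 42.7, 39.7, 45.5, 61.9 and 40.4 RPKM in pregnant libraries 1 to 5. Its groups overlapped by pregnant library 4 alone, which lay above cyclic library 1, and the log2 difference was -0.80 (SE 0.19, 95% interval -1.23 to -0.38).

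Of the remaining proteases, TPP1, a tripeptidyl peptidase, averaged 5.85 ± 2.53 RPKM over the cyclic libraries and 2.9 ± 0.90 RPKM over the pregnant ones, LGMN, the asparaginyl endopeptidase legumain, 13.1 ± 4.43 against 7.8 ± 3.08 RPKM, and CTSC, a dipeptidyl peptidase, 48.8 ± 11.7 against 31.9 ± 15.7 RPKM. Their log2 differences were -0.75, -0.69 and -0.67. In CTSC, pregnant library 5 (58.8 RPKM) was among the cyclic values and the other pregnant libraries lay between 18.3 and 29.7 RPKM. CTSH, an aminopeptidase, and CTSZ, a carboxypeptidase, differed by -0.27 (SE 0.19) and -0.22 (SE 0.20). CTSS and CTSK lay on the other side of 0. CTSS, which trims the invariant chain in antigen-presenting cells, averaged 48.3 ± 7.63 RPKM over the cyclic libraries and 59.2 ± 8.57 RPKM over the pregnant ones (log2 difference 0.29, SE 0.14, 95% interval -0.02 to 0.60), and CTSK, the collagenase of osteoclasts, 12.8 ± 2.28 against 14.5 ± 2.22 RPKM (log2 difference 0.18, SE 0.14). Of the 12 macrophage and myeloid markers tested, 9 were lower and 3 higher in mean (median log2 difference -0.29), and the part of such cells in the CTSS value was not tested.

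**Figure D2:**
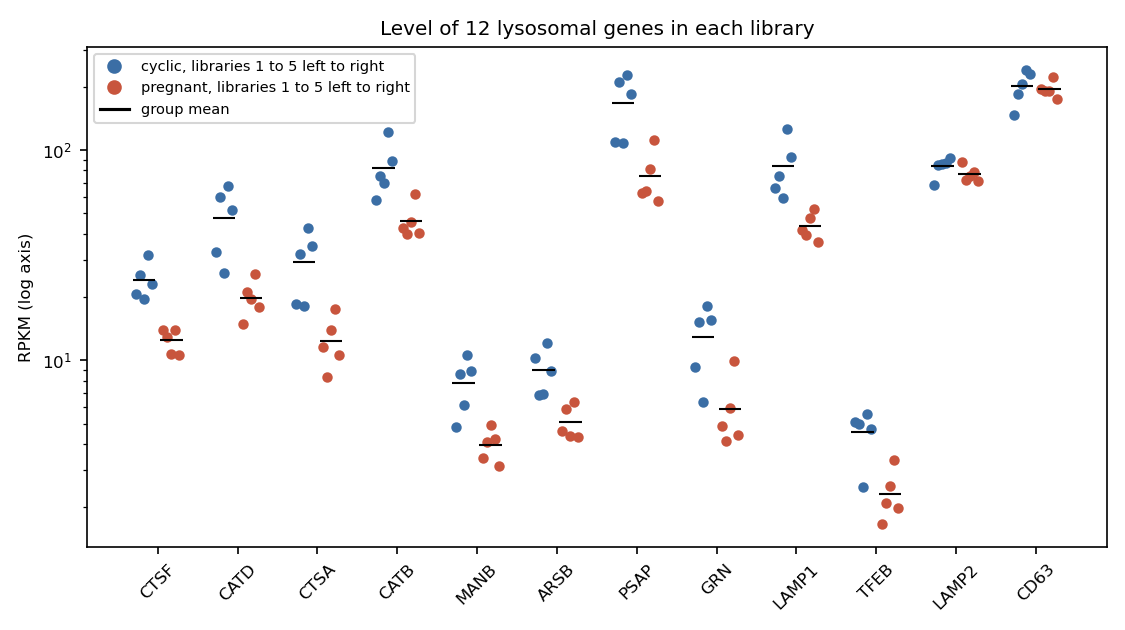
RPKM (log axis) of 12 lysosomal genes in each of the 10 libraries, cyclic in blue and pregnant in red, with bars at the group means. CTSF, CATD, CTSA, ARSB and LAMP1 have no overlap between groups, whereas the groups overlap for LAMP2 and CD63; for CATD the lowest cyclic and highest pregnant values are 25.9 and 25.8 RPKM.

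Among 9 glycosidases, which remove sugars from glycoproteins and glycolipids, 8 were negative, but the median was -0.19 and only 2 lay below -0.5. MANB, described as the lysosomal alpha-mannosidase MAN2B1, stood at 4.83, 8.63, 6.15, 10.6 and 8.88 RPKM in cyclic libraries 1 to 5 and 3.44, 4.1, 4.95, 4.21 and 3.14 RPKM in pregnant libraries 1 to 5. Cyclic library 1 and pregnant library 3 overlapped by a small margin, and the log2 difference was -0.80 (SE 0.19, 95% interval -1.21 to -0.38). NEU1, the sialidase, averaged 4.53 ± 1.61 RPKM over the cyclic libraries and 2.75 ± 0.448 RPKM over the pregnant ones (log2 difference -0.51, SE 0.21). NAGLU, which acts on heparan sulfate, and GUSB, the beta-glucuronidase, differed by -0.44 (SE 0.19) and -0.40 (SE 0.18). The intervals of HEXA, FUCA1, GLB1, GAA and GLA all held 0, with log2 differences from -0.19 for HEXA to 0.04 for GLA. HEXA, the alpha subunit of hexosaminidase A, averaged 14 ± 1.72 against 12.2 ± 0.859 RPKM, GAA, the alpha-glucosidase that degrades glycogen, 9.22 ± 3.87 against 8.57 ± 3.05 RPKM, and GLA, the alpha-galactosidase, 8.94 ± 2.32 against 9.03 ± 0.594 RPKM. FUCA1, the fucosidase, was the most abundant glycosidase, at 65.1 ± 19.4 against 58.1 ± 11.7 RPKM. GLB1, the beta-galactosidase, averaged 55.9 ± 25.1 against 52 ± 27.3 RPKM, but cyclic library 4 and pregnant library 2 stood at 100.8 and 95.9 RPKM and the other libraries between 28.1 and 57.6 RPKM.

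The 4 sulfatases, which remove sulfate from glycosaminoglycans and sulfatides, were all negative (median -0.54). ARSB, arylsulfatase B, stood at 10.2, 6.88, 6.95, 12.1 and 8.89 RPKM in cyclic libraries 1 to 5 and 4.61, 5.9, 4.37, 6.31 and 4.33 RPKM in pregnant libraries 1 to 5. Every pregnant library was below every cyclic library, with a log2 difference of -0.70 (SE 0.17, 95% interval -1.07 to -0.33). ARSA, arylsulfatase A, averaged 20.1 ± 7.53 RPKM over the cyclic libraries and 8.09 ± 3.58 RPKM over the pregnant ones and had the lowest log2 difference of any member, -1.19 (SE 0.34, 95% interval -1.93 to -0.45). Its cyclic library 3, at 7.29 RPKM, lay among the pregnant values and the other cyclic libraries between 20.3 and 26.4 RPKM. IDS and SGSH, which desulfate heparan sulfate, differed by -0.39 (SE 0.13) and -0.37 (SE 0.13). Of the lipid hydrolases, SMPD1, the acid sphingomyelinase, averaged 7.59 ± 2.42 against 4.07 ± 0.792 RPKM (log2 difference -0.72, SE 0.20). ASAH1, the acid ceramidase, averaged 33.6 ± 5.1 against 36.9 ± 4.62 RPKM (log2 difference 0.14, SE 0.13), and LIPA, the acid lipase that frees cholesterol from its esters, 21.5 ± 4.2 against 20.5 ± 4.38 RPKM (log2 difference -0.08, SE 0.18).

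The 4 luminal proteins that are not enzymes went in opposite directions. PSAP, the precursor of the saposins that present sphingolipids to hydrolases, stood at 109, 209.9, 108, 227 and 184 RPKM in cyclic libraries 1 to 5 and 62.5, 63.6, 81.1, 112 and 56.9 RPKM in pregnant libraries 1 to 5. Cyclic libraries 1 and 3 lay just under pregnant library 4, and the other libraries were far apart. The log2 difference was -1.12 (SE 0.25, 95% interval -1.68 to -0.56), and the pregnant mean was 0.449 times the cyclic mean. GRN, the granulin precursor, stood at 9.26, 15.2, 6.35, 18.1 and 15.5 RPKM in cyclic libraries 1 to 5 and 4.87, 4.12, 5.93, 9.9 and 4.42 RPKM in pregnant libraries 1 to 5. Pregnant library 4 lay within the cyclic range, above cyclic libraries 1 and 3, and the log2 difference was -0.99 (SE 0.28, 95% interval -1.61 to -0.38). GM2A, the activator that lifts GM2 ganglioside for hexosaminidase A, was the member with the highest mean level. It stood at 182, 392, 59.6, 227 and 346 RPKM in cyclic libraries 1 to 5 and 438, 269, 429.7, 185 and 193 RPKM in pregnant libraries 1 to 5. The values overlapped almost wholly, with cyclic library 3 lowest of all; the log2 difference of 0.48 (SE 0.47, 95% interval -0.53 to 1.5) went to 0.05 without that library and to 0.03 with array weights. NPC2, which hands cholesterol to NPC1, stood at 142, 158, 278, 169 and 141 RPKM in cyclic libraries 1 to 5 and 204, 288, 285, 95.9 and 300.4 RPKM in pregnant libraries 1 to 5. Cyclic library 3 was high and pregnant library 4 low against the rest of their groups, and the log2 difference was 0.34 (SE 0.31, 95% interval -0.34 to 1.02), or 0.63 without pregnant library 4, 0.51 without cyclic library 3 and 0.72 with array weights. The ratio of PSAP to GM2A, both sphingolipid activators, was 0.533 to 1.81 in cyclic and 0.143 to 0.605 in pregnant libraries.

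Of the 5 membrane proteins, 1 lay below -0.5, LAMP1. LAMP1 and LAMP2 are the heavily glycosylated proteins that make up much of the lysosomal membrane surface. LAMP1 stood at 66.1, 75.5, 59, 126 and 92.7 RPKM in cyclic libraries 1 to 5 and 41.7, 39.5, 47.2, 52.5 and 36.6 RPKM in pregnant libraries 1 to 5. Every pregnant library was below every cyclic library, with a log2 difference of -0.89 (SE 0.19, 95% interval -1.31 to -0.47). LAMP2 stood at 68.1, 85, 85.9, 86.9 and 91.6 RPKM in cyclic libraries 1 to 5 and 87.5, 72.3, 75.1, 78.7 and 71.4 RPKM in pregnant libraries 1 to 5. Its groups overlapped, with a log2 difference of -0.11 (SE 0.11, 95% interval -0.36 to 0.13). The ratio of LAMP1 to LAMP2 within a library, which no scaling of the library can alter, was 0.97, 0.889, 0.686, 1.44 and 1.01 in cyclic libraries 1 to 5 and 0.476, 0.547, 0.629, 0.667 and 0.512 in pregnant libraries 1 to 5. The lowest cyclic ratio, in library 3, was just above the highest pregnant ratio, in library 4. CD63, a tetraspanin of late endosomes and exosomes and the most abundant membrane member, stood at 146, 184, 207, 241 and 229.7 RPKM in cyclic libraries 1 to 5 and 195, 190.1, 191, 222 and 175 RPKM in pregnant libraries 1 to 5. These values overlapped, with a log2 difference of -0.03 (SE 0.15, 95% interval -0.35 to 0.29). SCARB2, the receptor that carries glucocerebrosidase to lysosomes, stood at 33.9, 39.7, 47.7, 56 and 39.1 RPKM in cyclic libraries 1 to 5 and 42.7, 40.1, 41.1, 36.5 and 31.9 RPKM in pregnant libraries 1 to 5. Its groups overlapped, with a log2 difference of -0.15 (SE 0.14, 95% interval -0.47 to 0.16). NPC1, the cholesterol transporter of the membrane, stood at 12.7, 31.3, 15, 15.6 and 24.9 RPKM in cyclic libraries 1 to 5 and 24.2, 16.8, 16.9, 14.9 and 14.2 RPKM in pregnant libraries 1 to 5. Cyclic libraries 2 and 5 were highest and cyclic library 1 lowest, around the pregnant values, and the log2 difference was -0.13 (SE 0.24, 95% interval -0.64 to 0.39), or -0.53 with array weights and -0.25 without pregnant library 1, the highest of its group.

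TFEB was a low gene, with 49 to 154 reads per library. It stood at 5.12, 4.99, 2.49, 5.56 and 4.71 RPKM in cyclic libraries 1 to 5 and 1.66, 2.11, 2.52, 3.35 and 1.98 RPKM in pregnant libraries 1 to 5. Cyclic library 3 was level with pregnant library 3 and below pregnant library 4, and the remaining cyclic libraries were above all pregnant ones. The log2 difference was -0.73 (SE 0.20, 95% interval -1.16 to -0.30), and the pregnant mean was 0.508 times the cyclic mean. Cyclic library 3 and pregnant library 4, the nearest to the other group for TFEB, were also those where CATD, CTSA and LAMP1 came closest between groups.

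Pump subunits were expressed at levels spanning means from 0.0618 RPKM for ATP6V0D2 to 146.9 RPKM for ATP6V0E1 (pregnant heifers), and 3 of the 22 were below the level for testing. In the V0 sector, 6 of 8 tested subunits were negative (median -0.22), and in the V1 sector 6 of 11 (median -0.01). ATP6V0C encodes the proteolipid of the proton-carrying ring. It stood at 39.4, 59.6, 23.3, 59.8 and 62 RPKM in cyclic libraries 1 to 5 and 32.5, 24.7, 31.2, 36.4 and 30.9 RPKM in pregnant libraries 1 to 5, a log2 difference of -0.56 (SE 0.25, 95% interval -1.09 to -0.02). Cyclic library 3 was the lowest of all 10 libraries and the other cyclic libraries were above every pregnant one. ATP6V0B, another ring proteolipid, stood at 43.8, 54.1, 36.2, 57 and 52.2 RPKM in cyclic libraries 1 to 5 and 33.8, 33.1, 42.7, 39.6 and 41.8 RPKM in pregnant libraries 1 to 5. Cyclic library 3 lay among the pregnant values and the other cyclic libraries above them, with a log2 difference of -0.33 (SE 0.14, 95% interval -0.64 to -0.02). ATP6V0D1, the subunit that links the ring to the central stalk, stood at 28.2, 46.4, 23, 54.6 and 57.4 RPKM in cyclic libraries 1 to 5 and 33.4, 23.9, 32.2, 31.2 and 23.6 RPKM in pregnant libraries 1 to 5. Cyclic library 3 was lowest of all, cyclic library 1 lay among the pregnant values and libraries 2, 4 and 5 above them, with a log2 difference of -0.45 (SE 0.24, 95% interval -0.99 to 0.08).

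The a subunit of V0, which places the pump in a given membrane, was read as ATP6V0A1, ATP6V0A2 and ATP6V0A4, and as TCIRG1, the a3 form, which the naming rule does not take in and which averaged 7.49 ± 1.8 RPKM over the cyclic libraries and 5.42 ± 1.14 RPKM over the pregnant ones (log2 difference -0.40, SE 0.17). ATP6V0A1 stood at 20.3, 49.5, 18.3, 36 and 41.6 RPKM in cyclic libraries 1 to 5 and 31.1, 24.9, 29.3, 22.7 and 23.7 RPKM in pregnant libraries 1 to 5, with cyclic values on both sides of the pregnant ones (log2 difference -0.23, SE 0.25). ATP6V0A2, known in mammals from the Golgi and early endosomes, stood at 5.81, 5.88, 6.43, 4.64 and 6.11 RPKM in cyclic libraries 1 to 5 and 7.45, 6.81, 9.46, 7.01 and 6.65 RPKM in pregnant libraries 1 to 5. Every pregnant library was above every cyclic library, and the log2 difference was 0.32 (SE 0.13, 95% interval 0.04 to 0.60). ATP6V0A4, known from acid-secreting cells of kidney and epididymis, stood at 9.48, 10.3, 6.46, 9.4 and 11.8 RPKM in cyclic libraries 1 to 5 and 7.24, 6.75, 9.39, 11.5 and 6.01 RPKM in pregnant libraries 1 to 5 and overlapped between groups (log2 difference -0.20, SE 0.19). ATP6V0E1 was the most abundant pump gene, at 114, 125, 142, 164 and 125 RPKM in cyclic libraries 1 to 5 and 119, 179, 148, 121 and 168 RPKM in pregnant libraries 1 to 5 (log2 difference 0.12, SE 0.15), and its relative ATP6V0E2 averaged 1.24 ± 0.381 against 1.07 ± 0.28 RPKM. ATP6V0D2, known from osteoclasts and kidney, was listed at 0 in cyclic library 1 and pregnant library 1 and reached at most 0.163 RPKM.

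In the V1 sector, ATP6V1D of the central stalk stood at 23.9, 31.2, 39.5, 32.2 and 33.3 RPKM in cyclic libraries 1 to 5 and 43.5, 40.4, 39.7, 34.5 and 41.1 RPKM in pregnant libraries 1 to 5. Pregnant library 4 lay below cyclic library 3 and the other pregnant libraries above all cyclic ones, and the log2 difference was 0.32 (SE 0.13, 95% interval 0.03 to 0.61). ATP6V1G1 of the peripheral stalk stood at 69.9, 84.1, 99.6, 97 and 98.7 RPKM in cyclic libraries 1 to 5 and 108, 95.8, 102, 108 and 105 RPKM in pregnant libraries 1 to 5, with cyclic library 1 lowest and a log2 difference of 0.22 (SE 0.12, 95% interval -0.04 to 0.48). The catalytic subunit ATP6V1A averaged 15.1 ± 3.11 RPKM over the cyclic libraries and 16.6 ± 1.66 RPKM over the pregnant ones (log2 difference 0.15, SE 0.14). Of the stalk and regulatory subunits, ATP6V1E1 averaged 46.6 ± 7.04 against 42.8 ± 8.18 RPKM, ATP6V1F 42.4 ± 11.4 against 43.9 ± 4.63 RPKM, ATP6V1H 18.5 ± 3.43 against 18.2 ± 2.46 RPKM and ATP6V1C1 24 ± 3.1 against 27 ± 1.08 RPKM. They differed by -0.13, 0.08, -0.01 and 0.17, each with an interval that held 0.

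Isoforms of V1 subunits known from specialised acid-secreting epithelia were present beside the general ones. ATP6V1B1, the B subunit known from kidney intercalated cells, stood at 21.2, 28.2, 13.6, 25.2 and 26.2 RPKM in cyclic libraries 1 to 5 and 24.6, 21, 14.9, 14.8 and 18.8 RPKM in pregnant libraries 1 to 5, and the general ATP6V1B2 at 18.4, 20.9, 15.9, 24 and 21.1 RPKM in cyclic libraries 1 to 5 and 18, 16.3, 18.3, 21.2 and 19.3 RPKM in pregnant libraries 1 to 5. Their ratio within a library was 0.857 to 1.35 in cyclic and 0.699 to 1.37 in pregnant heifers, on both sides of 1 in either group. ATP6V1G3, the kidney form of the G subunit, stood at 65.4, 69, 106, 67.2 and 43.4 RPKM in cyclic libraries 1 to 5 and 54.3, 94.8, 52, 66.5 and 70.6 RPKM in pregnant libraries 1 to 5. Its ratio to ATP6V1G1 was 0.44 to 1.06 in cyclic and 0.502 to 0.99 in pregnant libraries. Its value rests on a short recovered length of 357 bases and at most 735 reads. The other forms were far below their relatives. ATP6V1C2 was at 0.0605 to 0.149 of ATP6V1C1, ATP6V1E2 at 0.00476 to 0.0229 of ATP6V1E1, and ATP6V1G2 at 0.0011 to 0.0123 of ATP6V1G1 over all 10 libraries. Between groups, ATP6V1B1 and ATP6V1B2 differed by -0.25 (SE 0.20) and -0.10 (SE 0.12), ATP6V1G3 by -0.03 (SE 0.23) and ATP6V1C2 by -0.01 (SE 0.14). ATP6V1E2 averaged 0.474 ± 0.204 against 0.503 ± 0.255 RPKM and ATP6V1G2 0.507 ± 0.391 against 0.426 ± 0.262 RPKM, below the level for testing.

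**Figure D3:**
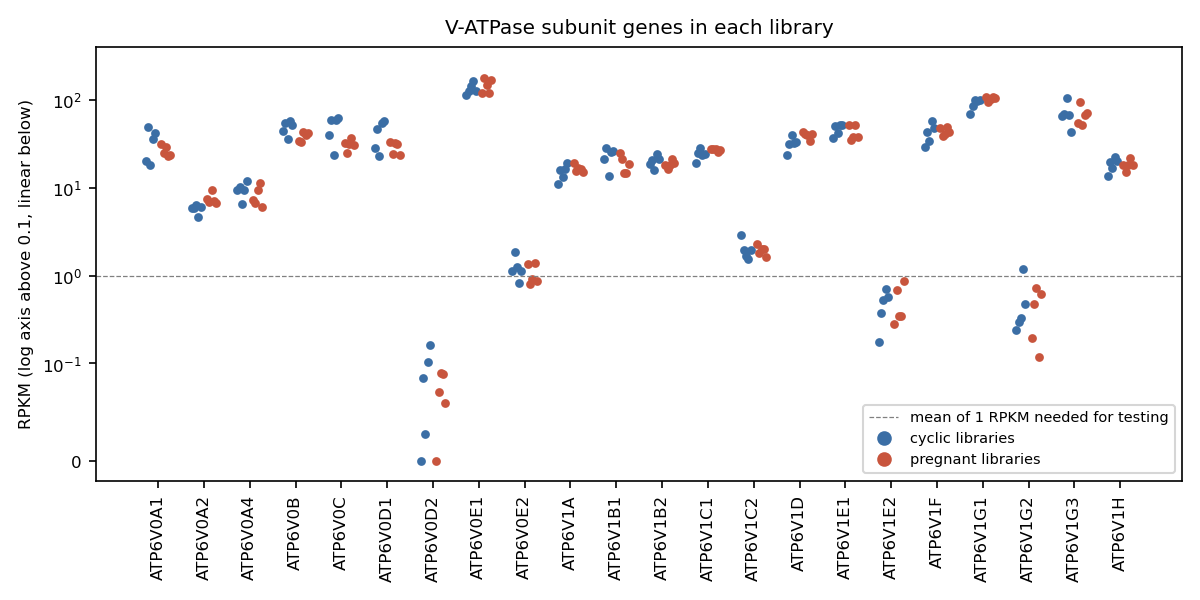
RPKM of all 22 V-ATPase genes in each library (log axis above 0.1 RPKM, linear below), cyclic in blue and pregnant in red. Most subunits lie between 10 and 150 RPKM with overlapping groups, while ATP6V0D2, ATP6V1E2 and ATP6V1G2 lie under the dashed line at 1 RPKM in the mean.

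Set against each other within a library, the 27 member hydrolases and 19 tested pump subunits separated the groups although neither class did so alone. Summed hydrolase levels were 498 to 785 RPKM in cyclic and 439.7 to 508 RPKM in pregnant libraries, and summed pump levels 574 to 806 RPKM and 672 to 702 RPKM. The ratio of hydrolases to pump was 0.868, 0.936, 0.813, 0.974 and 0.937 in cyclic libraries 1 to 5 and 0.645, 0.696, 0.743, 0.745 and 0.695 in pregnant libraries 1 to 5. All cyclic ratios were above all pregnant ratios. On the log scale, the mean of the hydrolases minus that of the pump subunits (each centred on all libraries) was 0.09 to 0.34 in cyclic and -0.33 to -0.10 in pregnant libraries. No test was made of this ratio, since its members had been chosen with the group difference known. The 31 other lysosomal hydrolases found in the data summed to 552 to 738 RPKM in cyclic and 531 to 663 RPKM in pregnant libraries. In pregnant library 2 these other hydrolases summed to 663 RPKM beside a pump sum of 702 RPKM. In cyclic library 2 they summed to 625 RPKM beside 741 RPKM. Set against the pump, the other hydrolases thus did not separate the groups, and the separation is described for the chosen hydrolases only. Cyclic libraries spread more than pregnant ones: the centred hydrolase mean was -0.06 and -0.07 in cyclic libraries 1 and 3, level with pregnant library 4 (-0.07), and 0.36, 0.50 and 0.38 in cyclic libraries 2, 4 and 5. Cyclic library 4, the shallowest of the 10, held the highest cyclic value of 16 of 27 hydrolases and of 6 of 19 pump subunits, and the part of depth in this was not tested. Pregnant library 4 held the highest pregnant value of 12 hydrolases.

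**Figure D4:**
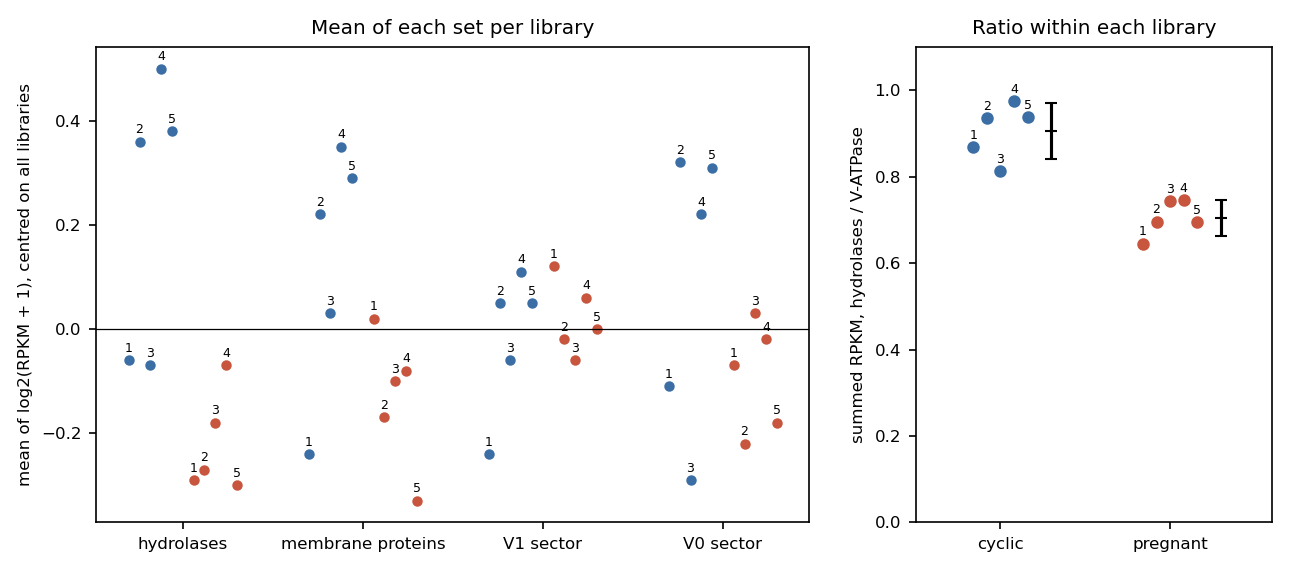
Left, mean of log2(RPKM + 1), centred on all libraries, of hydrolases, membrane proteins and the V1 and V0 sectors in each library (numbers are library numbers; blue, cyclic; red, pregnant). Right, ratio of summed RPKM of hydrolases to V-ATPase with mean ± SD; the cyclic libraries lie at 0.813 to 0.974 and the pregnant libraries at 0.645 to 0.745.

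Other genes of the pathway, in 8 lists, were compared in the same fit, where none passed the adjusted p of 0.05. Of 29 other lysosomal hydrolases, 19 were lower and 10 higher (median -0.16). IDUA, the iduronidase of glycosaminoglycan breakdown, averaged 15.2 ± 5.5 RPKM over the cyclic libraries and 7.58 ± 1.97 RPKM over the pregnant ones (log2 difference -0.85, SE 0.26), RNASET2, a ribonuclease, 11.1 ± 2.63 against 7.0 ± 1.14 RPKM (log2 difference -0.58, SE 0.16), and ARSG, a sulfatase, 6.64 ± 1.47 against 4.22 ± 0.798 RPKM (log2 difference -0.54, SE 0.17). Groups did not overlap for 1 of these 29, which was lower, where 2.05% of all tested features were lower without overlap and 4.91% higher. Beside the same shares, 2 of the 29 other membrane genes were lower without overlap and 1 higher. Also without overlap, 3 of 27 autophagy genes were lower, 2 of 22 Ragulator, Rag and mTORC1 genes higher, and 1 of 3 cathepsin inhibitors lower. Of 29 other membrane proteins and transporters, 20 were lower and 9 higher (median -0.14). C1orf85, matched to GLMP, a glycosylated lysosomal membrane protein, differed by -0.79 (SE 0.17) and TMEM9 by -0.78 (SE 0.19). MFSD8, a lysosomal transporter of the neuronal ceroid lipofuscinosis group, lay in the other direction at 0.59 (SE 0.15), with every pregnant library above every cyclic one.

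V-ATPase accessory and assembly factors were evenly divided, with 7 of 14 lower (median -0.06). ATP6AP1, an accessory subunit of the pump, averaged 29.6 ± 10.8 RPKM over the cyclic libraries and 15.2 ± 4.09 RPKM over the pregnant ones (log2 difference -0.87, SE 0.25) and RNASEK, a small membrane protein bound to V0, 61.9 ± 16.7 against 36.3 ± 8.34 RPKM (log2 difference -0.73, SE 0.21). DMXL1, a relative of the assembly factor Rav1 of yeast, differed by 0.61 (SE 0.20), and OXR1, with the same p, by 0.89 (SE 0.29). Of 21 genes listed for mannose-6-phosphate tagging, hydrolase maturation and sorting, 16 were lower (median -0.28). The tagging genes GNPTAB, GNPTG and NAGPA differed by -0.15 (SE 0.20), 0.09 (SE 0.12) and -0.13 (SE 0.13), each with an interval that held 0. The mannose-6-phosphate receptors M6PR and IGF2R differed by -0.33 (SE 0.11) and -0.62 (SE 0.21). SUMF1, which activates all sulfatases in the endoplasmic reticulum, averaged 29.4 ± 5.29 RPKM over the cyclic libraries and 19.7 ± 2.87 RPKM over the pregnant ones, with no overlap between groups (log2 difference -0.55, SE 0.14). AP3M1, an adaptor subunit, also had no overlap but was higher in pregnant heifers (log2 difference 0.35, SE 0.12). CLN6, which helps newly made hydrolases leave the endoplasmic reticulum, differed by -0.69 (SE 0.18), and AP1M2, a clathrin adaptor subunit of epithelia, by -0.55 (SE 0.17).

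Of 27 genes of autophagy and relatives of TFEB, 16 were lower and 11 higher (median -0.09). MAP1LC3A, an LC3 protein of autophagosomes, averaged 32.2 ± 5.19 RPKM over the cyclic libraries and 18.3 ± 1.34 RPKM over the pregnant ones, and SQSTM1, the cargo receptor p62, 85.8 ± 19.5 against 56.1 ± 7.87 RPKM. Neither overlapped between groups, and their log2 differences were -0.77 (SE 0.13) and -0.59 (SE 0.16). ATG13, of the kinase complex that starts autophagy, differed by -0.55 (SE 0.13). Among 19 genes of lysosome fusion, 12 were lower (median -0.11), with VPS11 of the HOPS tether at -0.65 (SE 0.19), the SNARE SNAP29 at -0.52 (SE 0.18) and the SNARE STX17 at 0.60 (SE 0.20). For the Ragulator, Rag and mTORC1 genes, 13 of 22 were lower (median -0.04). TSC2, an inhibitor of mTORC1, was at -0.70 (SE 0.21), while LAMTOR5 of the Ragulator and RHEB, the activator of mTORC1, were at 0.38 (SE 0.13) and 0.23 (SE 0.10), both with no overlap between groups. All 3 tested cathepsin inhibitors were lower in mean. CST3, cystatin C, averaged 71.9 ± 9.44 RPKM over the cyclic libraries and 40.8 ± 14.4 RPKM over the pregnant ones (log2 difference -0.86, SE 0.21), without overlap, SERPINB1 averaged 28.2 ± 5.89 against 15.8 ± 3.38 RPKM (log2 difference -0.80, SE 0.17), and CST6 differed by -0.30 (SE 0.16).

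**Figure D5:**
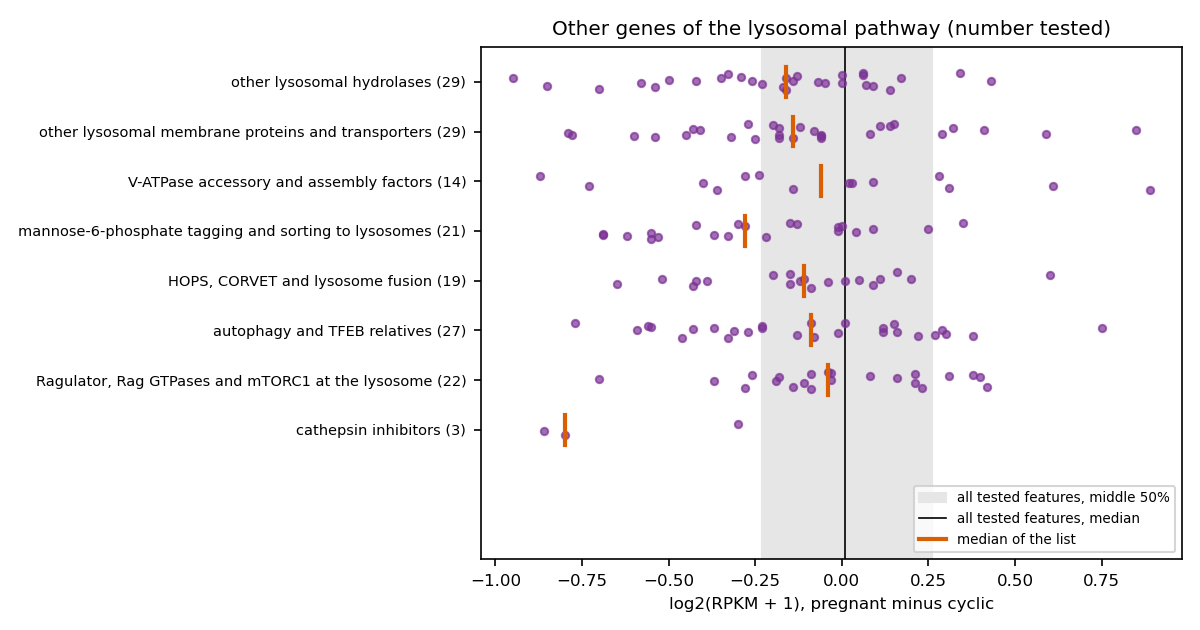
Log2 differences (pregnant minus cyclic, log2(RPKM + 1)) of the tested genes in 8 lists of related genes; points are genes, orange bars list medians, the grey band the middle range of all tested features (-0.23 to 0.26). List medians run from -0.80 for the 3 cathepsin inhibitors to -0.04 for Ragulator, Rag and mTORC1 genes.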

How the data were processed

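Polyadenylated RNA of isthmus epithelial cells was sequenced in 10 libraries as stranded Illumina TruSeq libraries, per the labels' protocols. The authors deposited a single table (24596 features) headed only as expression; the deposited values behaved as RPKM and were treated so. No aligner, counter, build or annotation is named in the sources used here. Groups follow the treatment label. Since the labels do not say that libraries come from different animals, p-values may reflect technical spread. No 2 libraries held identical values.

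Members and lists were chosen with earlier results of these data known. All 59 members matched the reference gene table, 56 by symbol and the others by the symbol in their description. PPT1 was not analysed here. Library totals and feature lengths were recovered by seeking values at which all 10 RPKM of a feature become whole reads (tolerance 0.02 reads plus rounding). This resolved 12792 of 12834 tested features, and 8 of 8 mitochondrial genes had their annotated length; 0.2% of 500 features with jittered values were resolved.

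Values of log2(RPKM + 1) were tested with limma-trend (R 4.3.3, limma 3.58.1), with a minimum mean of 1 RPKM, group alone in the model and p-values adjusted over all 12834 features (Benjamini-Hochberg). On simulated data the fit recovered 81 of 100 log2 differences of size 1 and 96 of 100 of size 2, with 17 false calls. The simulated noise was drawn separately for every feature. Shifts of many features together within a library were left out, so this outcome does not carry over to these libraries. Genes were named by rule: CTSF, CATD, CTSA, PSAP, MANB, LAMP1, LAMP2 and TFEB, the most abundant member of each class, up to 6 members per class of smallest p, all pump isoforms, and up to 3 genes per related list, ties included. TCIRG1, GNPTAB, GNPTG, NAGPA, M6PR, IGF2R and AP3M1 of the related lists were given besides. Alternatives were a pseudocount of 0.1, the absence of a filter, 2 other scalings, array weights, a threshold of 0.1, a replicate block, voom (plain or with quality weights) on recovered reads, and each library left out. A planned search of promoters for the E-box was not made, since no sequence was used here. Tables were built in Python 3.11.15 (pandas 2.3.3, numpy 2.4.6) and plots in matplotlib 3.10.9.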

Additional observations from a re-analysis of the deposited data

Results flagged for a closer look

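Libraries are given here when they stood apart from the other 4 of their group, by a distance to the next value above 0.71 of the range of all 5. Of 112 groups examined (56 tested members in both conditions), 9 met this, where chance gives about 1 in 20 groups. In cyclic heifers, GLB1 stood at 100.8 RPKM in library 4 (next 46.31), NPC2 at 277.5 RPKM in library 3 (next 168.8), LAMP2 at 68.11 RPKM in library 1 (next 84.98) and TFEB at 2.49 RPKM in library 3 (next 4.715). In pregnant heifers, CATB stood at 61.85 RPKM in library 4 (next 45.52), SMPD1 at 5.454 RPKM in library 4 (next 3.888), CTSC at 58.8 RPKM in library 5 (next 29.73), NPC1 at 24.16 RPKM in library 1 (next 16.94) and ATP6V0A2 at 9.457 RPKM in library 3 (next 7.451). Without the library in question, the log2 difference of TFEB was -0.89, that of CATB -0.91 and that of ATP6V0A2 0.24.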

How the results depend on the processing

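With limma-trend, 0 members and 0 of all tested features passed an adjusted p of 0.05, while 3534 features had an unadjusted p under 0.05. The count stayed at 0 for members and for all features with a pseudocount of 0.1, without the filter, median-ratio or upper-quartile scaling, voom on the recovered reads, and the replicate block. Array weights, which replace the variance trend, gave 29 members (25 lower, 4 higher) and 4789 features, voom with quality weights 29 members and 4923 features, and a threshold of 0.1 gave 12 members and 1018 features. Leaving out each library in turn gave 0 to 19 members and 0 to 2213 features; 19 members and 2213 features came without cyclic library 3, 1 member and 56 features without pregnant library 4, and 0 without any other library. Members without overlap numbered 6 (6.96% of all features), 9 after median-ratio scaling (6.67%) and 8 after upper-quartile scaling (6.47%), and 6 to 15 with each library left out (7.35% to 17.8%). The cause of these shifts was not tested.

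Class medians with each library left out were -0.50 to -0.33 for hydrolases, -0.58 to -0.26 for luminal proteins, -0.23 to -0.08 for membrane proteins and -0.11 to -0.02 for V-ATPase. Upper-quartile scaling moved the median of all features to -0.07, that of V-ATPase from -0.03 to -0.12 and that of membrane proteins from -0.13 to -0.21. Array weights moved LAMP2 to -0.18, SCARB2 to -0.06, CD63 to -0.06, NPC1 to -0.53 and ATP6V0E1 to 0.25. Of 23 members followed singly through the alternatives, 21 kept their sign in those run for them. ATP6V0A1, ATP6V0A4, ATP6V1B1, ATP6V1B2 and ATP6V1G3, also given in every library, were not followed in this way. CD63 turned to 0.04, 0.02 and 0.01 without cyclic library 4, cyclic library 5 and pregnant library 5 (range -0.14 to 0.04), and NPC1 to 0.05 without cyclic library 2 (range -0.26 to 0.05). Libraries with the same number did not deviate together (correlations of -0.34 to 0.28 over 5 pairs, 2 of 10 libraries closest to their own number). This gave no sign of pairing by number, but so few pairs cannot exclude a shared day or batch. The replicate block called 0 members. Depth gave at least 16 reads to every value of a tested member.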
